A study of Mus musculus with 3 samples.

Results

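The Gadd45 family of growth arrest and DNA damage-inducible genes was followed through RNA sequencing counts of JB6 P+ cells, a mouse epidermal line in which tumour promoters induce transformation. Its members were chosen by gene symbol as Gadd45a, Gadd45b and Gadd45g, 3 of the 24421 genes counted, and selected on their counts in the same libraries described here. There were 3 libraries, 1 per group. The first was from cells given 50 nM of CDDO, a synthetic oleanane triterpenoid, together with the phorbol ester TPA at 10 ng/mL. The next was from cells given TPA alone at the same dose. Each was applied every second day, for 5 days in all, with serum lowered to 1%. The last library came from cells of the same line labelled only as control. Their serum, time in culture and vehicle are not stated, so effects of these and of TPA cannot be told apart in any comparison with control. The column used for CDDO+TPA names CDDO without TPA, and it was matched to the only sample whose labels name CDDO.

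The GADD45 proteins are small acidic nuclear proteins without known enzymatic activity that act by binding other proteins. They bind and activate the kinase MAP3K4 upstream of p38 and JNK, interact with PCNA and p21, and can inhibit the complex of CDK1 and cyclin B1 at the entry into mitosis. Gadd45a is a classical p53 target, Gadd45b is induced through NF-kB and TGF-beta, and Gadd45g was identified as a cytokine-responsive gene. GADD45 proteins have also been linked to active DNA demethylation. In mouse skin, Gadd45a has been linked to the response of the epidermis to ultraviolet light.

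No group had a replicate, and the differences of the family between libraries were known when it was chosen. The values are therefore a description of 3 libraries without a test, and each 95% interval covers counting error only. The CDDO+TPA, TPA and control libraries held 7872089, 7813035 and 8190078 reads assigned to genes. Libraries were compared by CPM, the reads of a gene scaled to a common library size. A gene was taken as measured from 1 CPM in any library, which 13100 genes reached, and all 3 Gadd45 genes did so in every library. In bulk RNA, fewer cells of a type and less RNA per cell cannot be told apart. The labels call the line skin epithelial cells. Of 10 keratinocyte markers 3 were measured. Itga6 had 158, 91.4 and 86.2 CPM in the CDDO+TPA, TPA and control libraries. Krt10 had 6.59, 9.16 and 13.0 CPM there, and Dsp had 3, 10 and 3 reads. Krt5, Krt1, Krt15 and Epcam had 0 reads in every library, which allows up to 0.380, 0.377 and 0.374 CPM in the same order. Of 4 simple epithelium markers 2 were measured, and the list summed to 2.28, 1.13 and 2.25 CPM. All 6 mesenchymal markers were measured, with summed levels of 2327, 1917 and 2980 CPM in those libraries. Of the 6, 2 were at least 1 lower on the log2 scale in TPA than in control. By the size rule given below, 5.91% of all measured genes were lower there. In CDDO+TPA, 1 of the 6 was lower than in TPA, beside 7.78%, and 2 were lower than in control, beside 3.37%. In each comparison 0 were higher by that rule. The part of these markers in the Gadd45 differences was not tested. None of 6 leukocyte markers reached the level of a measured gene.

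The Gadd45 genes are short and share one layout. Gadd45a lies on chr6:67035096-67037407 (mm10, minus strand), Gadd45b on chr10:80930091-80932204 (plus strand) and Gadd45g on chr13:51846675-51848474 (plus strand), spanning 2312, 2114 and 1800 bases. Each has 4 exons, with 1224, 1266 and 1080 exonic bases. In the GENCODE M21 annotation of the same build, exon 2 is wholly coding and 102 bases long in each gene. The coding part of exon 3 has 238 bases in Gadd45a, 223 in Gadd45b and 214 in Gadd45g. The coding parts sum to 495 bases in Gadd45a, 480 in Gadd45b and 477 in Gadd45g.

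**Figure D1:**
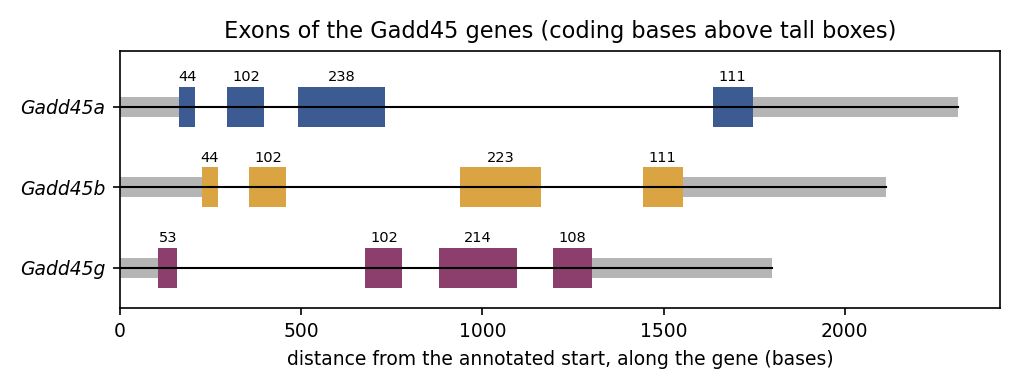
Exons of Gadd45a, Gadd45b and Gadd45g by distance in bases from the annotated start of each gene. Tall boxes are coding parts with their length above, low grey boxes are untranslated parts, and lines are introns. The second coding box has 102 bases in each gene.

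Exon 2 is shown because it is the one exon of equal length in all 3 genes, so that its bases can be set side by side without gaps. Capitals mark the 49 of 102 positions at which all 3 genes have the same base, and each is written 5′ to 3′ along the coding strand.
Gadd45a exon 2, chr6:67037010-67037111, minus strand: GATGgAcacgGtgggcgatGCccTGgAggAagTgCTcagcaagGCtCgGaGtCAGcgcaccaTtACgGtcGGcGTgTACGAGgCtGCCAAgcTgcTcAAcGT
Gadd45b exon 2, chr10:80930448-80930549, plus strand: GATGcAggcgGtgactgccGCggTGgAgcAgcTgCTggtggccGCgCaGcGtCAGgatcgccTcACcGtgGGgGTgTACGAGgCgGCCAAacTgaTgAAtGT
Gadd45g exon 2, chr13:51847352-51847453, plus strand: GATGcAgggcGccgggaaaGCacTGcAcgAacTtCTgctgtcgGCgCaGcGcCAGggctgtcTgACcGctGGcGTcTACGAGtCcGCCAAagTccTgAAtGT
Over these 102 bases, Gadd45b and Gadd45g were the same at 67, Gadd45a and Gadd45b at 64, and Gadd45a and Gadd45g at 60. Between the main transcripts, the longest run of identical bases was 17 between Gadd45a and Gadd45g, 14 between Gadd45b and Gadd45g and 13 between Gadd45a and Gadd45b. The members are thus not near-identical copies of each other.

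Another gene does touch the counts of Gadd45a. In the deposited table, the first exon of E230016M11Rik, a long noncoding RNA gene on the other strand, covers the whole of Gadd45a exon 3, which is 238 of 1224 exonic bases or 19.4%. The counting command, per the file headers, gave no strand option and no option to count reads over more than 1 gene. By default featureCounts leaves such reads unassigned, so reads touching that exon could be missing from Gadd45a in every library. E230016M11Rik itself held 10, 20 and 26 reads in the CDDO+TPA, TPA and control libraries. The same bases are affected in all 3 libraries, whereas the level of Gadd45a set against another gene is too low if those reads were dropped. No exon of another gene covers Gadd45b or Gadd45g.

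Gadd45g, the cytokine-responsive member, had the widest range of the 3. It held 164 reads in the CDDO+TPA library, 429 in the TPA library and 48 in the control library. These are 20.8 CPM (17.7 to 24.2), 53.9 CPM (48.9 to 59.2) and 5.99 CPM (4.42 to 7.94). The gene was highest with TPA alone, lowest in control and in between with CDDO+TPA. TPA over control gave a fold of 8.99 (6.66 to 12.4). The gene was 2.59-fold lower (2.16 to 3.12) in the CDDO+TPA library than in the TPA library, and 3.47-fold higher (2.50 to 4.89) in the CDDO+TPA library than in control. As differences on the log2 CPM scale these were 3.12, -1.36 and 1.75.

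Gadd45a, the p53 target, went the other way. It held 615 reads in the CDDO+TPA library, 412 in the TPA library and 907 in the control library, or 77.9 CPM (71.9 to 84.3), 51.7 CPM (46.8 to 57.0) and 113 CPM (106 to 121). Control was highest and TPA alone lowest. The gene was 2.19-fold lower (1.95 to 2.46) in the TPA library than in control. It was 1.51-fold higher (1.33 to 1.71) in the CDDO+TPA library than in the TPA library, and 1.45-fold lower (1.31 to 1.61) in the CDDO+TPA library than in control.

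Gadd45b, the member induced through NF-kB and TGF-beta, varied least. It held 490, 780 and 597 reads in the CDDO+TPA, TPA and control libraries, or 62.1 CPM (56.7 to 67.8), 97.9 CPM (91.2 to 105) and 74.5 CPM (68.6 to 80.7). TPA alone was highest, as for Gadd45g, but here CDDO+TPA was lowest. TPA over control gave a fold of 1.31 (1.18 to 1.46). The gene was 1.58-fold lower (1.41 to 1.77) in the CDDO+TPA library than in the TPA library, and 1.20-fold lower (1.06 to 1.36) in the CDDO+TPA library than in control.

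**Figure D2:**
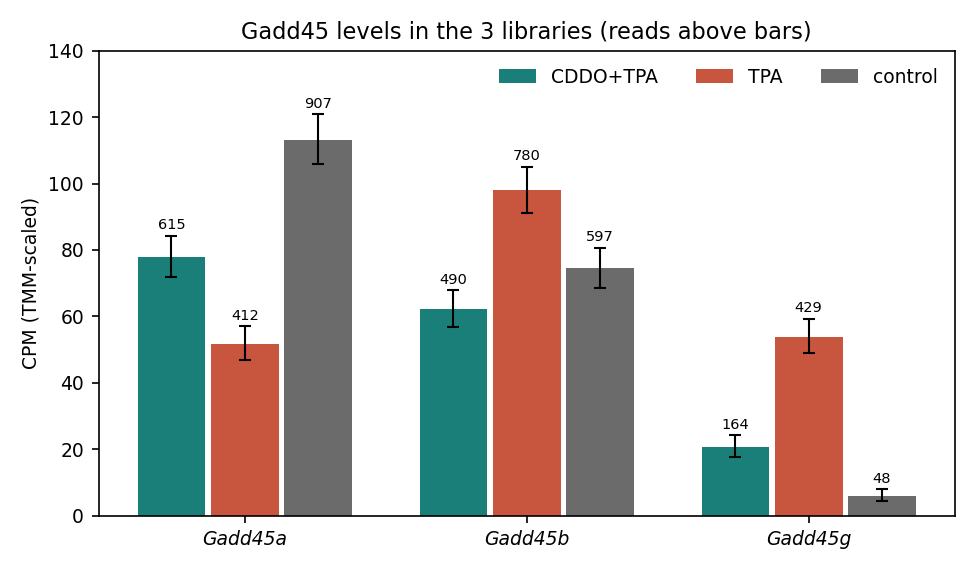
CPM of Gadd45a, Gadd45b and Gadd45g in the CDDO+TPA, TPA and control libraries, with exact 95% Poisson counting intervals and the reads above each bar. Gadd45a was lowest in the TPA library at 51.7 CPM, whereas Gadd45b and Gadd45g were highest there at 97.9 and 53.9 CPM.

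A gene was counted as past the size rule when its difference was at least 1 on the log2 scale and the 95% interval of the read ratio lay wholly above or below 1. In the TPA library against control, Gadd45g was past the rule upward, as were 9.57% of the measured genes, and Gadd45a downward, as were 5.91%. Gadd45b, at 0.39 on the log2 scale, was not past it. In the CDDO+TPA library against the TPA library, Gadd45g was past the rule downward, as were 7.78% of the measured genes. Gadd45a at 0.59 and Gadd45b at -0.66 were not past it, and 7.87% of the measured genes were past it upward. In the CDDO+TPA library against control, Gadd45g was past the rule upward, as were 8.02%. Gadd45a at -0.54 and Gadd45b at -0.26 were not past it, and 3.37% were past it downward. Each pair of these comparisons shares a library, so they are not independent of each other.

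Many measured genes with large differences have few reads. Among the 9890 genes with a mean of at least 10 CPM, which include all 3 members, 8.67% were past the rule in the TPA library against control, 3.85% upward and 4.81% downward. For CDDO+TPA against TPA the share was 7.57%, with 5.28% upward and 2.3% downward. For CDDO+TPA against control it was 6.79%, with 5.13% upward and 1.67% downward. Gadd45g had the 24th highest log2 difference of these 9890 genes in the TPA library against control, and the 153rd highest of all 13100 measured genes. In the CDDO+TPA library against the TPA library it had the 115th lowest of the 9890 and the 814th lowest of the 13100. Gadd45a had the 348th lowest of the 9890 and the 666th lowest of the 13100 in the TPA library against control.

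**Figure D3:**
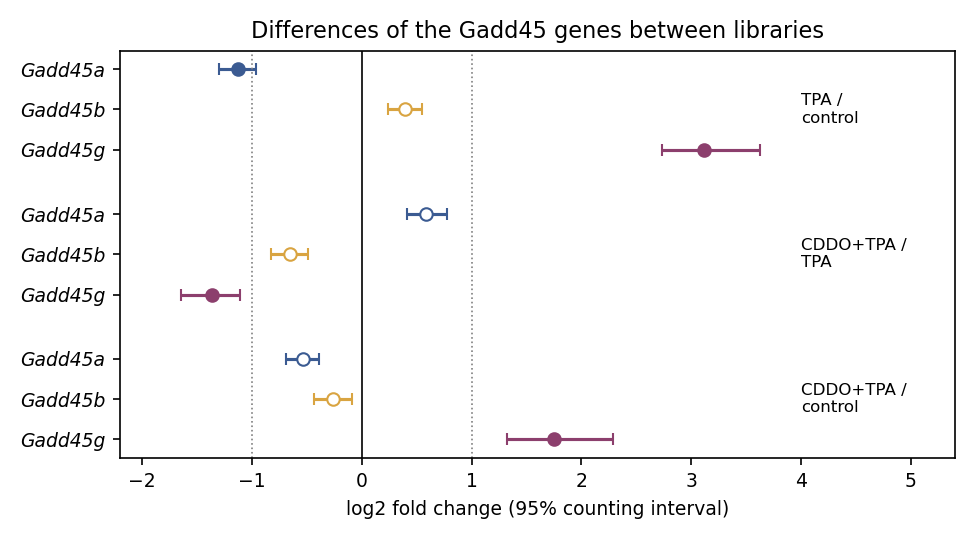
Log2 fold changes of the 3 genes in each pair of libraries, the first-named over the second, with 95% counting intervals; dotted lines mark a difference of 1 and filled points are past the size rule. Gadd45a and Gadd45g lie on opposite sides of 0 in every pair.

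Levels of different members were compared per kilobase of exon. In the control library the order was Gadd45a, Gadd45b and Gadd45g, with 92.5, 58.8 and 5.55 CPM per kb, and Gadd45a was 16.7 times (12.5 to 22.8) the level of Gadd45g. In the CDDO+TPA library the order was the same, with 63.7, 49.0 and 19.2 CPM per kb, and Gadd45a was 3.31 times (2.78 to 3.96) Gadd45g. In the TPA library Gadd45b was highest at 77.3 CPM per kb, followed by Gadd45g at 49.9 and Gadd45a at 42.3.

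Gadd45b was 1.83 times (1.62 to 2.07) the level of Gadd45a per kb in the TPA library, and 1.47 times (1.31 to 1.67) when only the 986 bases of Gadd45a not covered by another gene were used. The order of Gadd45g and Gadd45a in the TPA library rests on that choice. Gadd45g was 1.18 times (1.03 to 1.35) Gadd45a over all exonic bases, and 0.951 times (0.828 to 1.09) over the uncovered bases. The comparison over uncovered bases was added after the overlap was seen. The order of Gadd45g and Gadd45a there cannot be stated from these counts.

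Of the summed Gadd45 reads per kb, Gadd45g made up 14.6% in the CDDO+TPA library, 29.4% in the TPA library and 3.54% in the control library. The share of Gadd45a was 48.2% in the CDDO+TPA library, 24.9% in the TPA library and 58.9% in the control library. Gadd45b had 37.2%, 45.6% and 37.5%. Summed over the 3 genes, the levels were 161, 204 and 194 CPM in the CDDO+TPA, TPA and control libraries. With the scaling used here, the sum in the TPA library was 1.05 times that of control (0.979 to 1.13), while its make-up differed. That interval includes no difference, but other scalings were not applied to this sum. Before scaling, the family held 1621 of 7813035 reads in the TPA library and 1552 of 8190078 in control, a larger ratio. Summed per kb, the levels were 169 CPM per kb in the TPA library and 157 in control. With CDDO+TPA the sum was 1.27-fold lower (1.18 to 1.36) than in the TPA library and 1.20-fold lower (1.12 to 1.30) than in control.

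**Figure D4:**
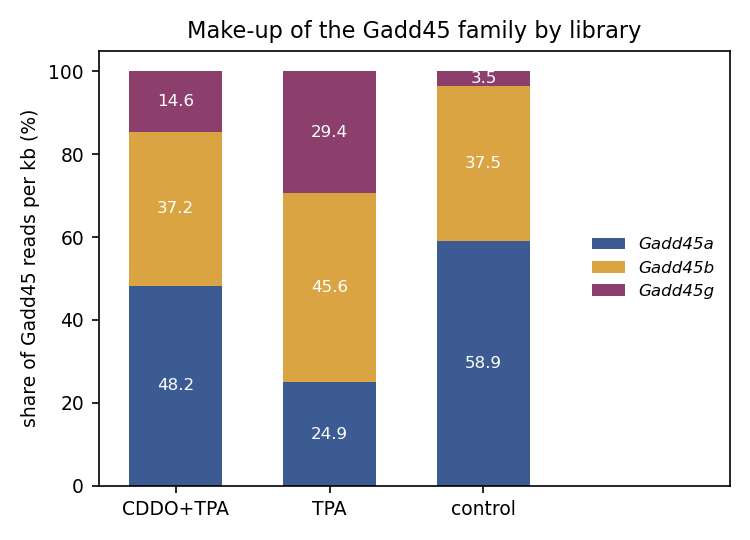
Share of each gene in the summed Gadd45 reads per kilobase of exon, in percent, in the CDDO+TPA, TPA and control libraries. Gadd45g took 29.4% in the TPA library, against 3.54% in control.

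The promoters are shown because the members differ in direction between libraries. Each sequence holds the 250 bases before the RefSeq start in GRCm38.p6, the assembly that mm10 also names, written 5′ to 3′ along the gene. Capitals mark matches on either strand to any of 9 motifs, which were chosen with these sequences in view.
Gadd45a promoter, chr6:67037408-67037657, minus strand: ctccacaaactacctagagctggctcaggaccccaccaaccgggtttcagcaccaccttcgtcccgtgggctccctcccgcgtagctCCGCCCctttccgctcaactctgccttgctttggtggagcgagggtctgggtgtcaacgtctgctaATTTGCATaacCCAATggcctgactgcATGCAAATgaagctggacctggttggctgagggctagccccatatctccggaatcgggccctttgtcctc
Gadd45b promoter, chr10:80929841-80930090, plus strand: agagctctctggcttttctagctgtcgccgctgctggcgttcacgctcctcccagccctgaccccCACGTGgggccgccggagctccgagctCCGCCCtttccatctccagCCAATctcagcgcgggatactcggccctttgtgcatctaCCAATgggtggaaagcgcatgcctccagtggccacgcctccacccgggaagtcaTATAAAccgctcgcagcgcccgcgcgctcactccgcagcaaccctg
Gadd45g promoter, chr13:51846425-51846674, plus strand: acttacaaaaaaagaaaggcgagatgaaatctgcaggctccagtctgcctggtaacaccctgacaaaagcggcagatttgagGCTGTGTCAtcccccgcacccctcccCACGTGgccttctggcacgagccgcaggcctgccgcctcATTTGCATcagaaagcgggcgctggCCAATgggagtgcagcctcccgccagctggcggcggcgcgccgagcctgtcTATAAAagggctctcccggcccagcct
The octamer ATTTGCAT, the motif of Oct factors, occurs 2 times in the Gadd45a window and 1 time in that of Gadd45g, and 1.60% of 32851 such windows of mouse genes hold it. The CCAAT box, bound by NF-Y, occurs 1 time in Gadd45a and Gadd45g and 2 times in Gadd45b, and 33.8% of windows hold it. The E-box CACGTG, held by 6.02% of windows, and the TATA element TATAAA, held by 12.4%, occur in Gadd45b and Gadd45g. The core of the antioxidant response element TGACNNNGC occurs in Gadd45g alone of the 3, and 10.2% of windows hold it. The GC box GGGCGG occurs in Gadd45a and Gadd45b and in 32.7% of windows. The AP-1 motif TGANTCA, the cyclic AMP response element TGACGTCA and a 10-base NF-kB motif were not matched in these windows, against 6.75%, 1.55% and 0.356% of all windows. No match overlapped another. These matches describe letters and do not show binding, and binding was not measured.

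Proteins that GADD45 binds were taken from a list chosen with earlier results of these data known. Of 12 partner genes, all measured, 1 was past the size rule downward and 0 upward in the TPA library against control, beside 5.91% and 9.57% of all measured genes. For CDDO+TPA against TPA, 2 were past it upward and 0 downward, beside 7.87% and 7.78%. The 2 were Cdk1 and Ccnb1, which are counted again in the G2 and mitosis list below. Tdg is among the 12, although 92% of its exonic bases are covered by exons of other genes. The medians were 0.11 and 0.09 on the log2 scale, against 0.00 and 0.01 over all measured genes. Ccnb1, which encodes cyclin B1, had 69.3, 19.1 and 41.4 CPM in the CDDO+TPA, TPA and control libraries. It was 3.63-fold higher (3.03 to 4.38) in the CDDO+TPA library than in the TPA library and 2.17-fold lower (1.79 to 2.65) in the TPA library than in control. Its kinase partner Cdk1 had 109, 52.4 and 64.6 CPM and was 2.08-fold higher (1.85 to 2.35) in the CDDO+TPA library than in the TPA library. Map3k4, the kinase that GADD45 proteins activate, had 110, 99.1 and 70.1 CPM, and Pcna, the replication clamp, had 132, 129 and 105 CPM; neither was past the rule in any pair. Cdkn1a, which encodes p21, had 212, 263 and 251 CPM. Map2k7, a JNK kinase that Gadd45b can inhibit, had 150, 189 and 167 CPM.

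The p38 and JNK cascade, which GADD45 proteins feed through MAP3K4, was examined next. Of 17 genes 14 were measured, and 2 were past the rule upward and 0 downward in TPA against control, beside 9.57% and 5.91% of all measured genes. For CDDO+TPA against TPA, 0 were past it upward and 1 downward, beside 7.87% and 7.78%. The medians were 0.16 and 0.02. Mapk12, the p38 gamma kinase, had 28, 95 and 44 reads in the CDDO+TPA, TPA and control libraries. It had the order of libraries of Gadd45b, highest with TPA alone and lowest with CDDO+TPA. It was 3.36-fold lower (2.19 to 5.32) with CDDO+TPA than with TPA, and TPA over control gave a fold of 2.17 (1.5 to 3.18). Map2k6, a kinase of p38, had 39, 32 and 6 reads. Mapk14, the p38 alpha kinase, had 135, 97.0 and 87.6 CPM.

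Transcription factors reported at Gadd45 genes were examined in the same way. Of 18 genes 16 were measured, and 0 were past the rule in TPA against control, where 15.5% of all measured genes were. For CDDO+TPA against TPA, 1 was past it upward and 1 downward, beside 7.87% and 7.78% of all measured genes. The 16 factors all had a mean of at least 10 CPM. Among genes at that level, 8.67% were past the rule in TPA against control. For CDDO+TPA against TPA, 5.28% of them were past it upward and 2.3% downward. The medians of the factors were -0.04 and -0.17. Trp53, which encodes p53, had 133, 195 and 180 CPM in the CDDO+TPA, TPA and control libraries. Foxo3, a forkhead factor, had 53.7, 108 and 96.0 CPM and was 2.02-fold lower (1.79 to 2.27) in the CDDO+TPA library than in the TPA library. Brca1, a DNA repair gene, had 110, 25 and 26 CPM. Egr1, an early growth response factor, had 133, 79.6 and 91.6 CPM, and Atf4, an effector of the integrated stress response, had 216, 253 and 248 CPM.

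Other stress and growth-arrest inducible genes were set beside the family. All 17 were measured. For TPA against control and for CDDO+TPA against TPA, 0 were past the rule upward and 1 downward. In either direction, 15.5% and 15.6% of all measured genes were past it. All 17 had a mean of at least 10 CPM, a level at which these shares were 8.67% and 7.57%. The medians were -0.03 and -0.26. Of the 17, 3 had a positive log2 difference in the CDDO+TPA library against the TPA library, while of the 13100 measured genes 6656 had one. Ddit4, an mTOR inhibitor, had 63.4, 150.4 and 98.7 CPM in the CDDO+TPA, TPA and control libraries and was 2.37-fold lower (2.14 to 2.64) with CDDO+TPA than with TPA. Btg2, an antiproliferative p53 target, had 63.2, 48.8 and 108 CPM, the same order of libraries as Gadd45a. Ddit3, known as Gadd153, had 102, 125 and 141 CPM, and Ppp1r15a, known as Gadd34, had 236, 336 and 332 CPM; neither was past the rule in any pair. Atf3, a stress-induced factor, had 64.7, 101 and 158 CPM and was 2.44-fold lower (2.20 to 2.71) with CDDO+TPA than in control.

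Genes of G2 and mitosis, whose kinase GADD45 proteins can inhibit, were higher as a list with CDDO+TPA than with TPA. All 12 were measured. For CDDO+TPA against TPA, 9 were past the rule upward and 0 downward, beside 7.87% and 7.78% of all measured genes, with a median of 1.77. For TPA against control, 1 was past it upward and 4 downward, beside 9.57% and 5.91%, with a median of -0.62. Their summed level was 1506 CPM with CDDO+TPA, 474 with TPA and 671 in control. Mki67, a proliferation marker, had 459, 85.2 and 162 CPM. Like Gadd45a it was lowest with TPA, and unlike Gadd45a it was highest with CDDO+TPA. The part of the share of dividing cells in the Gadd45 differences was not tested.

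**Figure D5:**
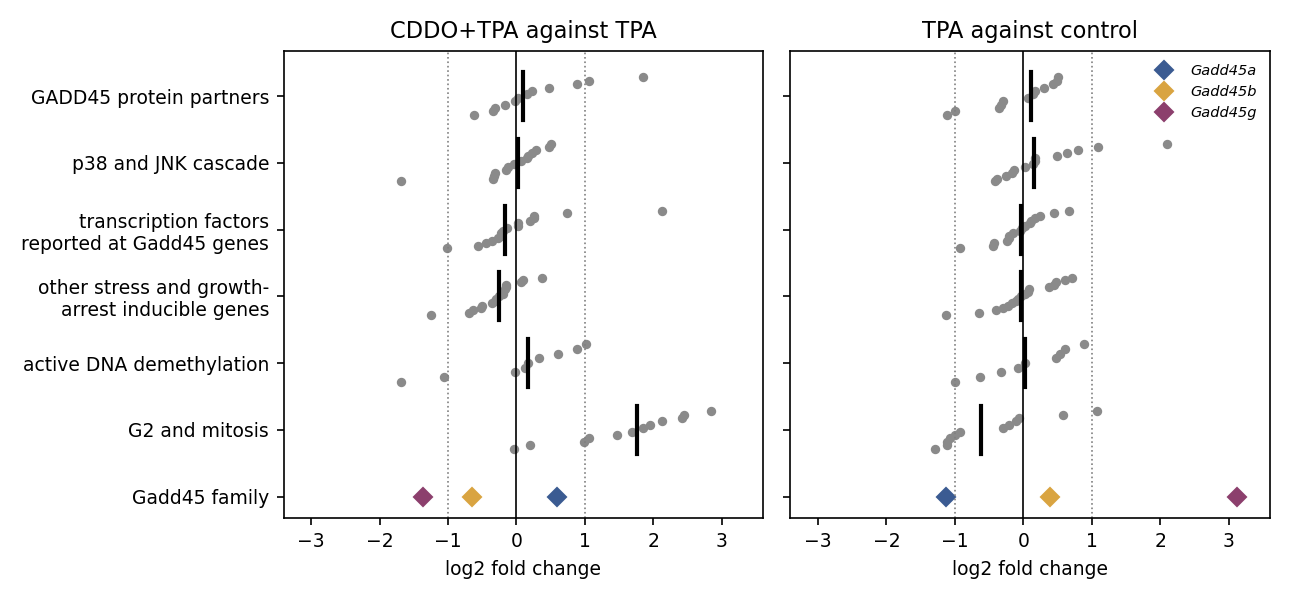
Log2 fold changes of the measured genes of 6 lists (grey points, with the median as a black bar) and of the 3 Gadd45 genes (diamonds), for CDDO+TPA against TPA and TPA against control; dotted lines mark a difference of 1. The G2 and mitosis list has medians of 1.77 and -0.62, and the other lists have medians between -0.26 and 0.17.

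Genes with the pattern most like each member were those at the smallest distance in the plane of 2 log2 differences, CDDO+TPA minus TPA and TPA minus control, over 3 libraries and 10303 genes reaching 10 CPM in any library. For Gadd45g the 5 nearest were Gli1, Akap5, Mep1a, Slc9a5 and 1810011O10Rik, at distances of 0.38, 0.41, 0.44, 0.53 and 0.57. Gli1, the Hedgehog transcription factor, had 60, 137 and 11 reads in the CDDO+TPA, TPA and control libraries, and Slc9a5, a sodium and proton exchanger, had 506, 1601 and 251. Gli1, Akap5 and 1810011O10Rik reached 10 CPM in the TPA library alone, so the level required bears on which genes could be listed. The same holds for Zfp689, listed below for Gadd45b. Within a distance of 0.5 of Gadd45g lay 3 of the 10303 genes. For Gadd45a, 653 genes lay within that distance, and Flt3l, Wdr92, Tle3 and Egfr were among the 5 nearest, at distances of 0.01 to 0.04. For Gadd45b, 1835 genes did, and the nearest were Znrd1, Zfp689, Zfp410, Ubp1 and Fbrs, at distances of 0.01 to 0.02. Genes with large differences are sparse in this plane, so these numbers partly restate how large each member's differences were. In all, 659 measured genes (5.03%), Gadd45g among them, were past the size rule upward in TPA against control and downward in CDDO+TPA against TPA.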

How the data were processed

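Total RNA of JB6 P+ cells was sequenced in 3 libraries, 1 per group. The deposited table holds raw counts of reads, as whole numbers, for each gene symbol, with exonic lengths. The authors ran featureCounts 1.5.3 for primary alignments against UCSC genes of mm10, without a strand option, per the file headers; column names carry a mark of duplicate removal. HISAT2, Picard and DESeq are named without version in the submitters' processing notes. Duplicate removal by position can cap dense genes; Gadd45a, the densest member, had 0.741 reads per exonic base in control. The header lists 7 alignment files, and the 3 columns present were used.

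Libraries were scaled with TMM in edgeR 4.0.16 (R 4.3.3). Log2 fold changes are differences of log2 CPM with a prior count of 2; folds are CPM ratios without it, with exact 95% conditional binomial (Clopper-Pearson) intervals. The calling step was tested on simulated data that held counting error only, so variation between cultures was not covered. A count of 0 was read against a floor of 3 counts. Alternatives were DESeq2 1.42.0 size factors, total reads, other filters and prior counts, and other lengths. No p-value was computed, since no group has a replicate. Members, lists and motifs were chosen with earlier results of these data known. Named genes were list members past the size rule in any pair, partners and regulators named for their role, and the 5 nearest patterns. Genes next to the loci were added after their values were seen. Some genes that the rule allows are not reported here. Promoters are RefSeq's (GRCm38.p6), with all 3 members matched by symbol, and exon sequences GENCODE's.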

Additional observations from a re-analysis of the deposited data

How the results depend on the processing

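The 36 alternative values of the members' log2 differences, from DESeq2 size factors, total reads and prior counts of 0.5 and 5, all kept their sign and their side of the size rule, and moved by at most 0.07. Requiring a mean of at least 10 CPM left fewer genes past the rule: 857 in TPA against control, 749 in CDDO+TPA against TPA and 672 in CDDO+TPA against control, where 2028, 2050 and 1493 were found with at least 1 CPM in 1 library. The percentage of those genes that were higher became 44.5, 69.7 and 75.4, in place of 61.8, 50.3 and 70.4.

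Without division by length, the shares of the Gadd45 reads in the TPA library were 48.1% for Gadd45b and 26.5% for Gadd45g. With only exonic bases not covered by another gene, an alternative chosen after seeing the data, the share of Gadd45a was 53.6% in the CDDO+TPA library, 29.2% in the TPA library and 64.1% in the control library. The share of Gadd45b was then 33.3%, 43.0% and 32.8%. The shorter length of Gadd45a in that alternative raises its share by construction. No paired analysis was possible because each group has 1 library. At 48 reads, the control value of Gadd45g carries the widest relative counting interval of the members, and the spread between cultures was not measured.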

Other observations

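Genes next to the Gadd45 loci were read from the deposited table after values were seen, as the 2 nearest measured genes on each side. Gng12, a G protein gamma subunit gene 13.7 kb from Gadd45a, had 270.1, 201 and 382 CPM in the CDDO+TPA, TPA and control libraries, the same order of libraries as Gadd45a. Its log2 differences were 0.42 in CDDO+TPA against TPA and -0.92 in TPA against control, below the size rule in both. Serbp1 had that order too, whereas Mad2l1 and Il12rb2, also near Gadd45a, were highest with CDDO+TPA. The share of all measured genes with a given order, here or above for Mapk12 and Btg2, was not counted. Diras1, a small GTPase gene 87.4 kb from Gadd45b, had 14, 59 and 15 reads. It was past the rule upward in TPA against control and downward in CDDO+TPA against TPA, as were 5.03% of all measured genes. Lmnb2 and Gng7, the nearest measured genes on either side of Gadd45b, had 46.0, 28.6 and 26 CPM and 60.7, 52.9 and 38.1 CPM. Neither they nor Timm13 had the order of Gadd45b. Near Gadd45g, Sema4d had 32, 22 and 10 reads, and neither it nor Secisbp2, Auh and Nfil3 had the order of Gadd45g.

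Genes of active DNA demethylation, a process to which GADD45 proteins have been linked, included 9 measured of 11. In CDDO+TPA against TPA 0 were past the size rule upward and 2 downward, beside 7.87% and 7.78% of all measured genes, with a median log2 difference of 0.17. In TPA against control 0 were past it in either direction, beside 15.5% of all measured genes, with a median of 0.03. Tet3, a 5-methylcytosine dioxygenase, had 77.0, 248 and 162 CPM in the CDDO+TPA, TPA and control libraries and was 3.22-fold lower (2.94 to 3.53) with CDDO+TPA than with TPA. Tet2 had 9, 19.0 and 13.6 CPM and was 2.11-fold lower (1.58 to 2.83). Tdg, a thymine DNA glycosylase reported as a partner of Gadd45a, had 9, 4 and 10 reads, and 92% of its exonic bases are covered by exons of other genes in the table, so its level cannot be read from these counts.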
